A study of Mus musculus with 15 samples.

Results

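The 7 adipokine genes described here are *Adipoq*, *Lep*, *Retn*, *Cfd*, *Rbp4*, *Nrg4* and *Apln*, taken by symbol from the 24982 genes counted in each library. All 7 passed the filter on low counts, which left 14121 genes for testing. RNA-Seq was done on whole aortas of wild-type male C57BL/6 mice (substrain C57BL/6J) aged 10 months, with 5 mice in each of 3 groups and 1 aorta per library. The control mice had a sham operation, the second group was orchiectomized, and the third was orchiectomized and carried a pellet of dihydrotestosterone (DHT), an androgen that aromatase does not turn into estrogen. Mice of all 3 groups, controls included, received aldosterone at 200 µg/kg per day together with 0.9% NaCl and 0.2% KCl in their water (Aldo-salt) until day 7, so no group shows the aorta without Aldo-salt. The question put to these genes was whether their mRNA levels followed removal of the testes and the return of androgen as DHT.

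Adipokines are proteins that fat cells release into the blood or onto neighboring tissue. The aorta lies in a sheath of perivascular fat, part of it brown fat, and RNA of that fat enters an aortic library as far as cleaning leaves it in place. Some of these genes are also read outside fat, such as *Apln* in endothelial cells and *Rbp4* in the liver. In a bulk library fewer fat cells and less RNA per fat cell cannot be told apart.

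The aortic label fitted its markers, and fat cell genes were read in all 15 libraries. *Myh11*, a smooth muscle myosin, had means of 4797 ± 905, 4367 ± 1451 and 6288 ± 598 CPM (counts scaled to the library total with TMM factors, mean ± SD, n = 5) in control, orchiectomized and DHT-treated orchiectomized mice. *Plin1*, which coats the fat droplet, had means of 424 ± 171, 235 ± 72.9 and 286 ± 140 CPM. *Ucp1*, the uncoupling protein of brown fat, reached 1803 ± 929, 911 ± 332 and 1609 ± 837 CPM, while *Zic1*, a marker of classical interscapular brown fat, had 0 to 3 counts per library. Orchiectomized replicate 2 stood apart in its cell type markers. Its 4 neutrophil genes summed to 1142 CPM against at most 29.6 in the other 14 libraries, but *Ltf* alone, which encodes lactoferrin, made up 1116 of that. Its 7 mesothelial genes summed to 412 CPM against at most 121, and its 8 endothelial genes to 1458 against at most 1224.

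*Lep* and *Apln* were the members that passed the test in any comparison, and the sequences just before their transcription starts are shown for that reason (RefSeq, GRCm38.p6, 250 bases each, read 5′ to 3′ on the gene's strand). Capitals mark the letters of the motifs searched. The *Lep* window is chr6:29059971-29060220 on the plus strand and the *Apln* window chrX:48034854-48035103 on the minus strand.

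Lep: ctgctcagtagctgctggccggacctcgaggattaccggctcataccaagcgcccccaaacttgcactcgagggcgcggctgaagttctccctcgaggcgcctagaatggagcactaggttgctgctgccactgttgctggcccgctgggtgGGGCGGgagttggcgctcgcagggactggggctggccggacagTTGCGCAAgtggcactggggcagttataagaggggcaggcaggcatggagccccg

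Apln: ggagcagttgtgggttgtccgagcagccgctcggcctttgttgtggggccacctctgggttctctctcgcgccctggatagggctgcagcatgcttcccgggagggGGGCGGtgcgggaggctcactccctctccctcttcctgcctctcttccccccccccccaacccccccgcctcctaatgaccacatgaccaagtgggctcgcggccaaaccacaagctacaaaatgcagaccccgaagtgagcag

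The motifs were AGAACA (a core of androgen receptor sites), TTGCGCAA (the C/EBP palindrome), GGGCGG (the Sp1 box), CACGTG (the E-box of clock factors) and AGGTCA (the core of nuclear receptor sites), each searched on both strands and without overlaps among the matches found. The *Lep* window held TTGCGCAA from position -55 and GGGCGG from -98, counted back from the start. The *Apln* window held GGGCGG from -144. Of 32536 windows of the same length before annotated starts, 0.166% held TTGCGCAA and 33.0% held GGGCGG or its reverse. AGGTCA (14.0% of windows) was met only in *Nrg4*, whose reverse letters begin at -90 and -26. AGAACA (16.0%) and CACGTG (6.04%) were in none of the windows of the 7 genes. A match is a description of letters and not a binding site.

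The 7 genes spanned a wide range of levels. Per kilobase of exon (GENCODE vM21 lengths), the median over the 15 libraries was 1101 CPM per kb for *Cfd*, 245 for *Adipoq*, 120 for *Rbp4*, 49.7 for *Retn*, 3.72 for *Nrg4*, 2.05 for *Lep* and 2.00 for *Apln*. *Cfd* lay above *Adipoq* in every library, and *Retn* lay above *Nrg4* in every library, with ranges that did not meet. The ranges of *Adipoq* and *Rbp4* and of *Rbp4* and *Retn* overlapped, but within each library *Adipoq* lay above *Rbp4* and *Rbp4* above *Retn*. The ranges of *Nrg4*, *Lep* and *Apln* overlapped, and the order of these neighbors changed between libraries. The levels of all 7 genes in each library are plotted by group.

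**Figure D1:**
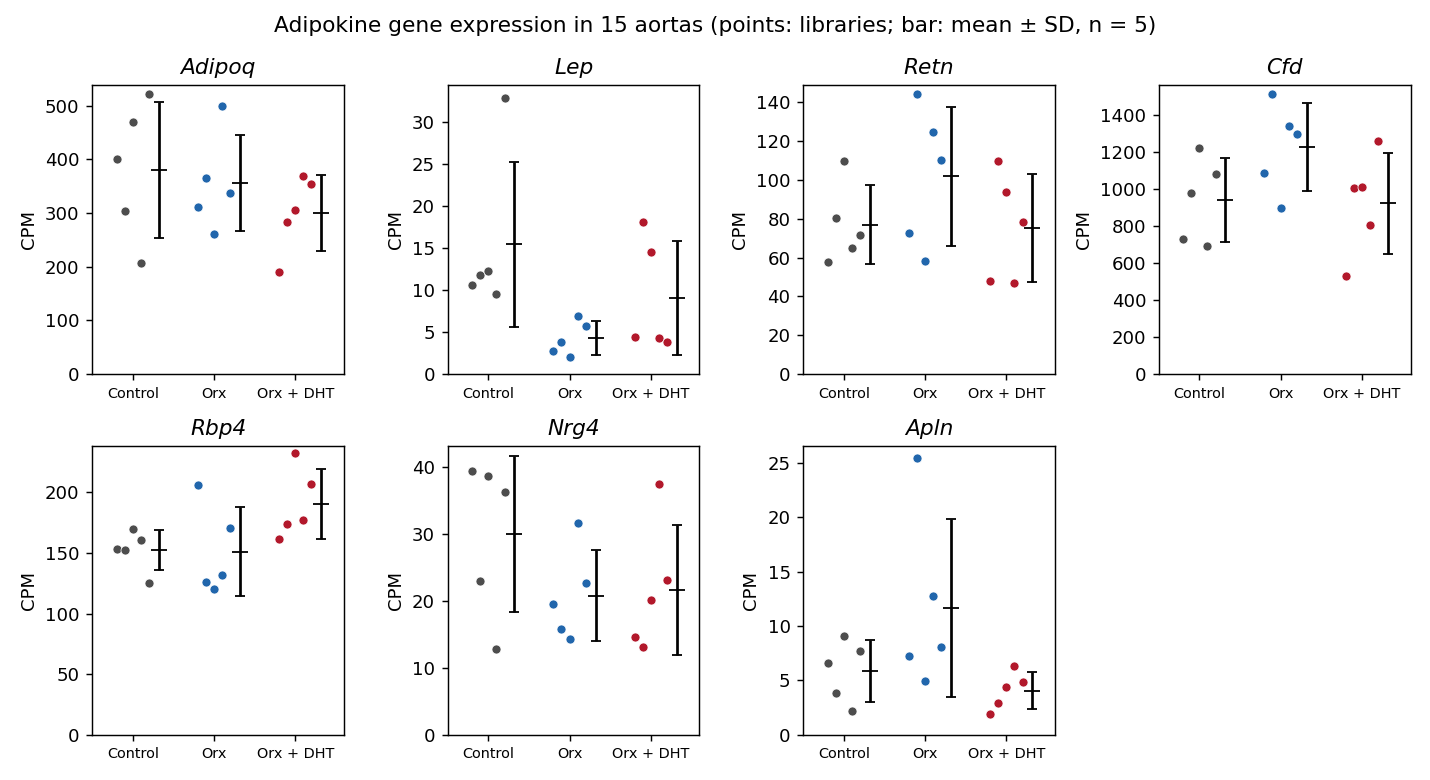
CPM (vertical axis, linear from 0) of the 7 adipokine genes in the 15 aortas, grouped as control, orchiectomized (Orx) and orchiectomized with DHT. Points are libraries and the bar is the mean ± SD (n = 5). All 5 Orx points for *Lep* lie below the lowest control point of 9.56 CPM, and *Apln* reaches 25.4 CPM in 1 Orx aorta.

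Orchiectomized mice had less *Lep* mRNA than control mice, and of the 7 genes it was the only member to pass the test in this comparison. At an unadjusted P value under 0.01, the rule for a call throughout, edgeR called 1 of the 7 members, against 3.22% of all tested genes. At a Benjamini-Hochberg adjusted P value under 0.05 it called 0 of the 7 and 0 genes in all (DESeq2 called 131 genes, *Lep* among them), while 1692 genes (12% of those tested) had an unadjusted P value under 0.05. The members' median log2 fold change was -0.01, beside 0.04 over all genes.

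*Lep* encodes leptin, the hormone by which fat signals its energy stores to the brain (chr6:29060221-29073876, plus strand). It measured 10.6, 11.8, 12.3, 9.56 and 32.9 CPM in the 5 control aortas. In the orchiectomized mice the values were 2.80, 3.81, 2.01, 6.87 and 5.78 CPM. With DHT they were 4.45, 18.1, 14.5, 4.32 and 3.83 CPM. All 5 orchiectomized aortas lay below all 5 control aortas, a pattern that 0.517% of all tested genes showed in this direction, whereas the DHT group overlapped both. Within the DHT group, 2 aortas lay above every orchiectomized aorta and 3 lay inside the orchiectomized range. Means were 15.4 ± 9.80, 4.25 ± 2.03 and 9.04 ± 6.75 CPM (SD, n = 5), from 117 to 360 counts per control library and 23 to 100 per orchiectomized library.

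From control to orchiectomized mice *Lep* fell by 1.85 on the log2 scale (SE 0.52, 95% interval -2.95 to -0.74, edgeR adjusted P = 0.268), which is 3.59-fold lower. Without control replicate 5, the highest library, the log2 fold change was -1.37 and *Lep* was no longer called (adjusted P = 0.423). DESeq2 gave an adjusted P of 0.0355, the lowest of a range up to 0.802 over the other alternatives. With DHT the log2 fold change over orchiectomized mice was 1.08 (SE 0.51, 95% interval -0.02 to 2.17, adjusted P = 0.244), which was not called and came to 0.65 without DHT replicate 2. Between DHT-treated and control mice the value was -0.77 (adjusted P = 0.564), and it ran from -1.19 without DHT replicate 2 to -0.29 without control replicate 5. The 2 comparisons that involve the untreated orchiectomized mice share those 5 libraries.

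Fat markers leaned the same way as *Lep*. All 15 adipocyte genes measured had a negative log2 fold change after orchiectomy and 1 of them (*Tusc5*) passed the test, with summed levels of 5300 to 17354 CPM in control and 5506 to 9625 CPM in orchiectomized mice. All 10 brown adipocyte genes tested were negative as well, and 1 (*Elovl3*) passed. With the mean level of the adipocyte genes as a covariate, *Lep* had a log2 fold change of -1.65 and was not called (adjusted P = 0.699). With the brown adipocyte genes as covariate it was still called. With DHT against orchiectomized mice, the log2 fold change was positive for 14 of 15 adipocyte and 9 of 10 brown adipocyte genes. In these lists 1 adipocyte gene was called higher (2.46% of all genes) and 1 brown adipocyte gene lower (7.27% of all genes). Clock genes also moved, with 6 of 12 higher and 2 lower after orchiectomy (2.08% and 1.13% of all genes), and their summed level was 457 to 611 CPM in control against 551 to 807 CPM in orchiectomized mice. Of 7 listed lymphocyte genes, the 5 tested were higher after orchiectomy (summed levels of 3.56 to 6.02 against 5.06 to 105 CPM). Of 8 listed neutrophil genes, the 4 tested were higher (1.15 to 2.63 against 7.22 to 1142 CPM, the 1142 being mostly *Ltf* in orchiectomized replicate 2). Genes low in control mice can pass the filter through the orchiectomized group alone, so these counts may be partly set by the filter. Among skeletal muscle genes, 2 of 6 were lower (31.9 to 484 against 9.56 to 184 CPM). The part of these genes in the *Lep* result was not tested.

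**Figure D2:**
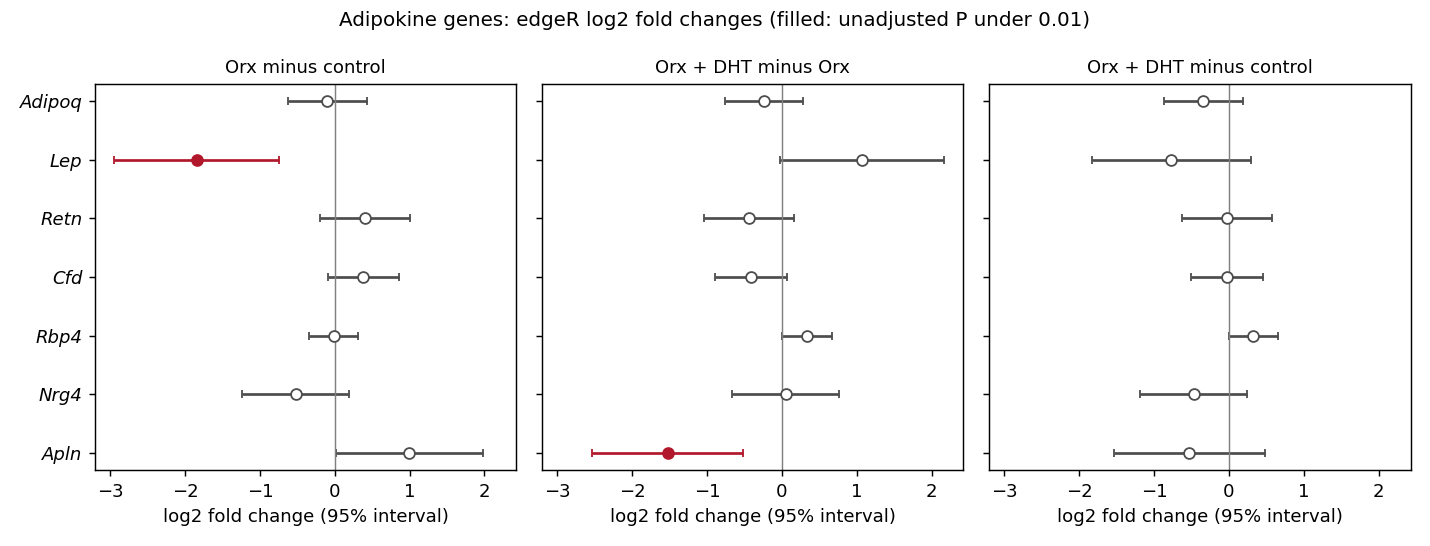
Log2 fold change (horizontal axis) of each adipokine gene in the 3 comparisons, with 95% intervals from edgeR. Filled points have an unadjusted P under 0.01. These are *Lep* after orchiectomy at -1.85 and *Apln* with DHT at -1.53, and the other intervals reach or nearly reach 0.

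*Adipoq* encodes adiponectin, an insulin-sensitizing hormone made by fat cells (chr16:23146536-23157968, plus strand). Its values were 401, 304, 469, 207 and 522 CPM in control mice. In orchiectomized mice they were 312, 364, 262, 500.2 and 338 CPM, and with DHT 191, 283, 307, 369 and 354 CPM. The 3 groups overlapped throughout, with means of 381 ± 127, 355 ± 89.5 and 300.5 ± 70.6 CPM. The log2 fold change was -0.10 after orchiectomy (SE 0.25, adjusted P = 0.900), and with DHT it was -0.24 against orchiectomized mice (adjusted P = 0.614) and -0.34 against control mice (adjusted P = 0.605).

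*Retn* encodes resistin, a cysteine-rich hormone that mice make in fat cells (chr8:3655770-3659818, plus strand). It ranged from 57.7 to 110 CPM in control, from 58.1 to 144 in orchiectomized and from 46.9 to 110 in DHT-treated mice, so the groups overlapped. Means were 77.0 ± 20.3, 102 ± 35.8 and 75.3 ± 27.7 CPM. Its log2 fold changes were 0.41 (adjusted P = 0.567), -0.44 (adjusted P = 0.397) and -0.03 in the order orchiectomized against control, DHT against orchiectomized and DHT against control.

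*Cfd* encodes adipsin, the complement factor D that cleaves factor B in the alternative pathway (chr10:79890853-79892655, plus strand). It was the most abundant of the 7, at 733, 978, 1223, 694 and 1085 CPM in control mice. Orchiectomized mice had 1086, 1516, 899, 1345 and 1299 CPM, and DHT-treated mice 532, 1007, 1015, 808 and 1264 CPM. Orchiectomized means were the highest of the 3 (943 ± 227, 1229 ± 240 and 925 ± 273 CPM), but the groups overlapped and neither step passed the test, with log2 fold changes of 0.38 (SE 0.22, adjusted P = 0.496) and -0.41 (adjusted P = 0.311).

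*Rbp4* encodes the retinol carrier of plasma (chr19:38116620-38125321, minus strand). Its range was 125 to 170 CPM in control, 120 to 206 in orchiectomized and 162 to 232 in DHT-treated mice. Means were 152 ± 16.7, 151 ± 36.6 and 190 ± 28.8 CPM, and all 3 ranges overlapped. With DHT the log2 fold change was 0.34 over orchiectomized mice (SE 0.15, adjusted P = 0.223) and 0.32 over control mice (adjusted P = 0.431), both short of a call. It was called against orchiectomized mice once orchiectomized replicate 1, the highest of its group, was left out, at 0.50.

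*Nrg4* encodes neuregulin 4, an EGF-like factor released by brown fat (chr9:55220222-55283654, minus strand). Its exons overlap *Fbxo22* and the pseudogene *Gm15625* on the opposite strand, and whether counting used the strand is not given in the sources used here, so its level is uncertain. It measured 39.4, 23.0, 38.6, 12.8 and 36.2 CPM in control mice. Orchiectomized mice had 19.6, 15.8, 14.3, 31.6 and 22.6 CPM, and DHT-treated mice 14.6, 13.1, 20.1, 37.4 and 23.2 CPM. The groups overlapped, with 3 control aortas above all 5 orchiectomized aortas and 1 below them all. The log2 fold change was -0.52 after orchiectomy (SE 0.33, adjusted P = 0.532) and 0.05 with DHT (adjusted P = 0.953).

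DHT-treated orchiectomized mice had less *Apln* mRNA than untreated orchiectomized mice, and it was the only member called in that comparison. That is 1 of 7 members against 9.72% of all tested genes, and 0 of 7 against 4.72% at an adjusted P value under 0.05. By the same edgeR fit, 2 members (*Apln* and *Rbp4*) had an unadjusted P value under 0.05, as did 21.2% of all genes. The members' median log2 fold change was -0.24, beside -0.02 over all genes.

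*Apln* encodes apelin, the peptide ligand of the receptor APLNR, which acts on vessel tone and on the heart (chrX:48025146-48034853, minus strand). Control mice had 6.61, 3.84, 9.07, 2.20 and 7.67 CPM. Orchiectomized mice had 7.21, 25.4, 4.98, 12.7 and 8.06 CPM, and DHT-treated mice 1.88, 2.97, 4.36, 6.29 and 4.86 CPM. Orchiectomized replicate 2 was the highest of all 15, and 4 of the 5 orchiectomized aortas lay above every DHT-treated aorta. The remaining orchiectomized aorta, replicate 3, lay inside the DHT range, so the groups overlapped.

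Means were 5.88 ± 2.81, 11.7 ± 8.17 and 4.07 ± 1.71 CPM. Between orchiectomized mice with and without DHT *Apln* fell by 1.53 on the log2 scale (SE 0.47, 95% interval -2.54 to -0.52, edgeR adjusted P = 0.0779), which is 2.88-fold lower. After orchiectomy alone the log2 fold change was 1.00 (SE 0.46, 95% interval 0.01 to 1.98, adjusted P = 0.413) and 0.49 without orchiectomized replicate 2, and between DHT-treated and control mice it was -0.53 (adjusted P = 0.681). Without orchiectomized replicate 2, the DHT difference was -1.02 (adjusted P = 0.185), and the call was also lost without orchiectomized replicate 4 or DHT replicate 1, 2 or 3, at -1.45, -1.34, -1.43 and -1.53.

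Endothelial markers moved with *Apln*, as did mesothelial, lymphocyte, neutrophil and macrophage markers. With DHT, 3 of the 8 endothelial genes were lower than in orchiectomized mice (*Pecam1*, *Tek* and *Vwf*), as were 7.27% of all genes, and 0 higher, and the summed level was 914 to 1458 CPM in orchiectomized and 681 to 894 CPM in DHT-treated mice. Over the 15 libraries, which differ in depth and group, Pearson's r between *Apln* and the mean level of these 8 genes on the log2 scale was 0.89, against 0.00 for *Lep*. In a fit with that level as a covariate, chosen after seeing the data, the DHT difference in *Apln* was -0.34 (SE 0.29, adjusted P = 0.452) and the difference after orchiectomy 0.58 (adjusted P = 0.311). In that fit *Lep* was still called in orchiectomized against control mice, at -1.89 (adjusted P = 0.192). The endothelial level is itself lower with DHT, so its share in the *Apln* difference and that of the treatment cannot be told apart.

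**Figure D3:**
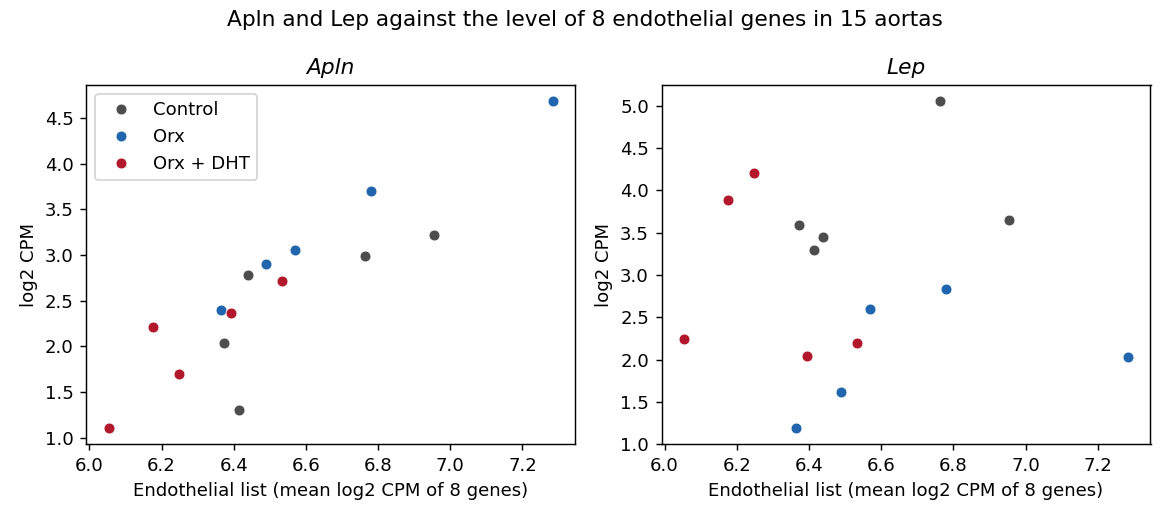
*Apln* (left) and *Lep* (right) in log2 CPM on the vertical axis against the mean log2 CPM of 8 endothelial genes on the horizontal axis. Each point is 1 aorta, colored by group. *Apln* rises along the axis (r = 0.89, n = 15), with the orchiectomized replicate 2 at the top right, and *Lep* shows no such slope.

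Between orchiectomized mice given DHT and sham-operated controls, edgeR called 0 of the 7 members, against 3.53% of all genes, and 0 members had an unadjusted P value under 0.05, against 11.8% of all genes. At an adjusted P value under 0.05 the share of all genes was 0.262%, again with 0 members. DESeq2 also called 0 members there, against 4.87% of all genes. No member's groups failed to overlap in this comparison, a property of 3.58% of all genes. The members' median log2 fold change was -0.34, beside 0.00 over all genes.

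Set against the adipocyte genes in the same library, the members parted. For this description the mean log2 CPM of the 15 adipocyte genes was subtracted from each member's log2 CPM in every library. The group mean of that level was lowest in orchiectomized mice, so a member that does not change would look highest there. Orchiectomized mice then lay above all control mice in 3 of the 7 members, *Adipoq*, *Cfd* and *Apln*, as did 0.878% of all genes. DHT-treated mice lay below all orchiectomized mice in 4 members, the same 3 and *Nrg4*, as did 3.72% of all genes. They lay below all control mice in *Apln* alone, as did 0.241% of all genes.

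*Adipoq* relative to the adipocyte genes was -0.25 ± 0.22, 0.27 ± 0.21 and -0.42 ± 0.23 on the log2 scale in control, orchiectomized and DHT-treated mice (SD, n = 5). *Apln* stood at -6.28 ± 0.17, -4.82 ± 0.91 and -6.59 ± 0.13, the narrowest spread of the members in the DHT group. *Cfd* stood at 1.10 ± 0.52, 2.07 ± 0.34 and 1.18 ± 0.49. *Nrg4* was the member that kept closest to the adipocyte genes, at -3.94 ± 0.09, -3.83 ± 0.14 and -4.26 ± 0.22. *Lep* alone had its lowest relative level in the orchiectomized mice, at -4.94 ± 0.75, -6.12 ± 0.46 and -5.70 ± 1.29, with overlapping groups. *Retn* (-2.51 ± 0.63, -1.57 ± 0.51 and -2.46 ± 0.81) and *Rbp4* (-1.50 ± 0.71, -0.96 ± 0.38 and -1.05 ± 0.46) overlapped as well.

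With the adipocyte level as a covariate in edgeR, 3 members were called with DHT against orchiectomized mice, against 8.36% of all genes, all 3 lower. *Adipoq* had a log2 fold change of -0.58 (adjusted P = 0.0294), *Nrg4* -0.47 (adjusted P = 0.0491) and *Apln* -2.13 (adjusted P = 0.023). *Apln* was called after orchiectomy in that fit, at 1.79 (adjusted P = 0.588), while *Lep* was not. The adipocyte level itself differed between the groups, with means of 8.75 ± 0.66, 8.17 ± 0.30 and 8.61 ± 0.53 log2 CPM.

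**Figure D4:**
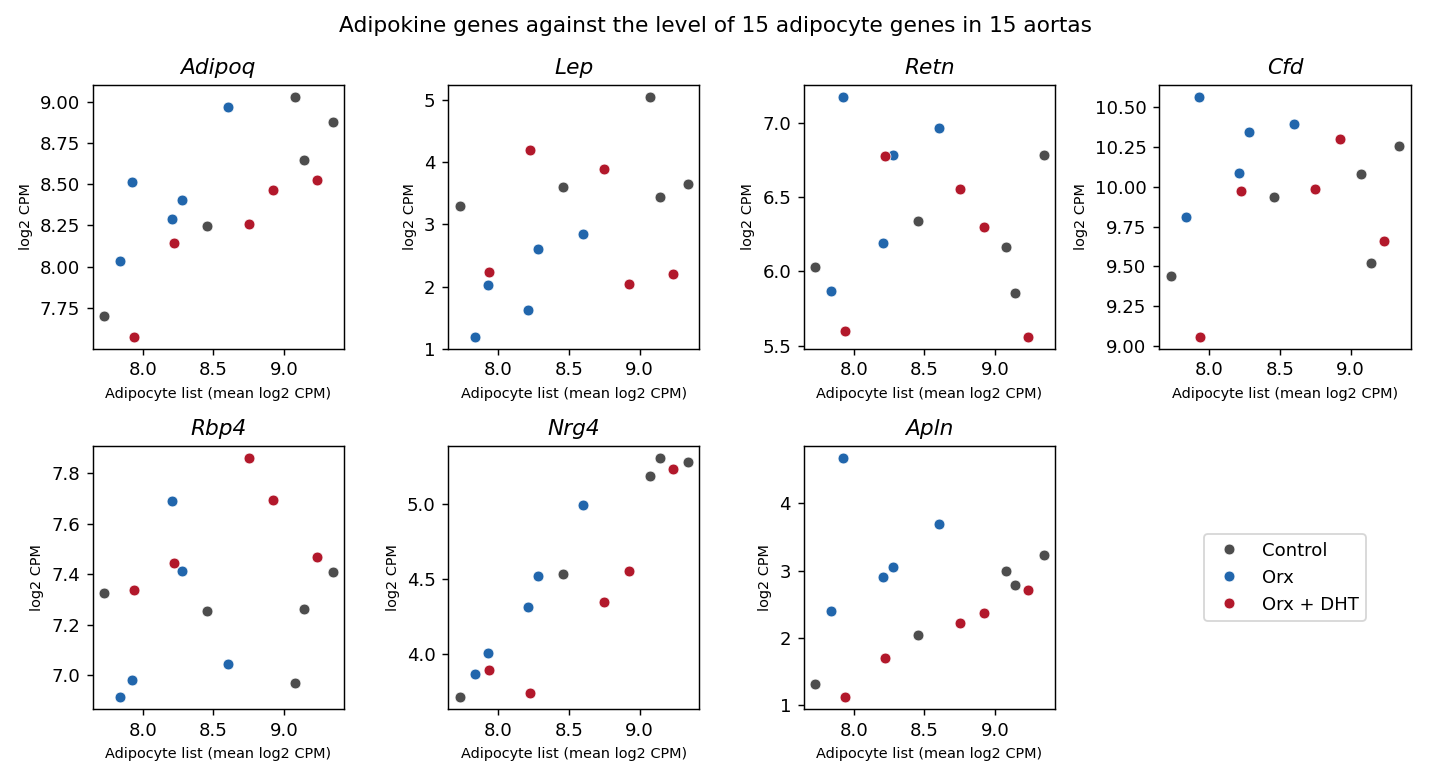
Log2 CPM of each adipokine gene (vertical axis) against the mean log2 CPM of 15 adipocyte genes (horizontal axis), 1 point per aorta, colored by group. *Nrg4* runs along the axis (r = 0.91, n = 15), the 5 orchiectomized points of *Apln* lie above the rest at like adipocyte levels, and *Retn* shows no slope (r = -0.05).

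Over the 15 libraries, which share group and depth differences, Pearson's r with the adipocyte level was 0.91 for *Nrg4*, 0.74 for *Adipoq*, 0.41 for *Lep*, 0.25 for *Apln*, 0.23 for *Rbp4*, 0.18 for *Cfd* and -0.05 for *Retn*. Among the members, the pairs with the highest r were *Retn* with *Cfd* at 0.84 and *Adipoq* with *Nrg4* at 0.83. Of all tested genes, those whose log2 CPM ran most like *Nrg4* were *Pparg*, the master regulator of fat cells, at 0.99, and the mitochondrial enzymes *Etfa* and *Acat1*, both at 0.98. *Adipoq* ran most like *Asns* (0.95), *Gcdh* (0.94) and *Pfkfb1* (0.94). *Apln* ran most like *Met* (0.94), the receptor of hepatocyte growth factor, *Cmbl* (0.93) and *N4bp3* (0.92).

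The other 4 members had these nearest genes: *Rbp4* with *Emc10* (0.95), *Eri3* and *Myl9* (both 0.92), *Retn* with *Ppp2r3c* (0.92), *Rad51ap1* (0.90) and *Prnp* (0.89), and *Cfd* with *Cd38* (0.90), *Chst1* and *Fscn1* (both 0.89). *Lep* had the lowest best match of the 7, with *Gm10767* (0.81), *4931408D14Rik* (0.79) and *Phka2* (0.78). These are descriptions over 15 libraries and not evidence of shared function.

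Most receptors and partners of the adipokines were not called. Of 16 listed genes 13 were tested, with 1 higher after orchiectomy (2.08% of all genes), 4 lower with DHT against orchiectomized mice (7.27% of all genes), and 1 lower with DHT against control mice (2.01% of all genes). The list's median log2 fold changes were 0.13, -0.47 and -0.09. Of the cognate receptors *Lepr*, *Adipor1*, *Adipor2*, *Aplnr* and *Erbb4* were not called. *Lepr* (leptin) was at 21.6 ± 5.50, 26.3 ± 8.94 and 27.4 ± 8.12 CPM and *Adipor1* (adiponectin) at 192 ± 30.9, 184 ± 14.9 and 181 ± 18.2 CPM. *Adipor2*, the other adiponectin receptor, differed by -0.66 on the log2 scale between control and orchiectomized mice (adjusted P = 0.342). *Aplnr*, the apelin receptor, had 0.75 after orchiectomy (adjusted P = 0.415) and -0.62 with DHT (adjusted P = 0.322). *Erbb4*, the receptor of neuregulin 4, had -0.09 and 0.35.

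The 4 receptor and partner genes that fell with DHT were *Cfb*, *C3*, *Stra6* and *Tlr4*. *Cfb*, the factor B that adipsin cleaves, went from 93.3 ± 19.3 to 52.2 ± 9.46 CPM, a log2 fold change of -0.84 (adjusted P = 0.028) whose call was lost under limma voom, and it was also lower than in control mice by -0.67 (adjusted P = 0.208), a call lost in 6 of 24 alternative fits. *C3*, the complement component that factor B joins, fell by 0.69 on the log2 scale (adjusted P = 0.0575), a call lost in 6 of 24 alternative fits. *Stra6*, the receptor that takes up retinol from RBP4, had 5 to 8 counts per DHT-treated library and fell by 1.66 on the log2 scale (adjusted P = 0.0496), a call lost with the endothelial covariate. *Tlr4*, a receptor of bacterial lipopolysaccharide linked to resistin, had -0.47 (adjusted P = 0.0773), and its call was lost in 12 of 24. *Erbb3*, a neuregulin receptor that pairs with other ErbB receptors, was higher after orchiectomy at 1.47 (adjusted P = 0.308), and that call was lost in 18 of 24 alternative fits.

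Of 24 other factors secreted by fat, 18 were tested. After orchiectomy 1 was higher, *C1qtnf1*, an adiponectin relative, at 0.42 (adjusted P = 0.288), beside 2.08% of all genes, and that call was lost in 14 of 24 alternative fits. With DHT against orchiectomized mice 4 were lower, beside 7.27% of all genes, and 0 higher. *Dpp4*, a peptidase shed from cell surfaces, had the largest difference, from 18.0 ± 7.36 to 3.39 ± 1.48 CPM and a log2 fold change of -2.39 (adjusted P = 0.0036). *Ccl2*, the monocyte chemoattractant, fell by 1.26 (adjusted P = 0.025) and *C1qtnf3*, a further adiponectin relative, by 1.39 (adjusted P = 0.037, a call lost under voom), while *Metrnl* had -0.35 (adjusted P = 0.0812), a call lost in 14 of 24 alternative fits. *Dpp4* (-1.96, adjusted P = 0.032) and *Ccl2* (-1.43) were also lower than in control mice. The list's median log2 fold change with DHT was -0.33, beside -0.02 over all genes.

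Other cell type markers moved with these genes. With DHT against orchiectomized mice, where 7.27% of all genes were lower, all 7 mesothelial genes were lower, with summed levels of 63.0 to 412 CPM in orchiectomized and 13.6 to 35.9 CPM in DHT-treated mice. Of 7 listed lymphocyte genes, the 5 tested were lower (5.06 to 105 against 1.71 to 8.64 CPM). Of 8 listed neutrophil genes, the 4 tested were lower (7.22 to 1142 against 2.25 to 10.5 CPM). Genes low outside the orchiectomized group can pass the filter through it alone, so these counts may be partly set by the filter. Also lower were 3 of 7 macrophage genes and 2 of 8 fibroblast genes, while 2 of 6 skeletal muscle genes were higher (2.46% of all genes). Their part in the differences of *Apln*, *Dpp4*, *Ccl2*, *C3* and *Cfb* was not tested.

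Regulators of fat cell differentiation, all 10 of which were tested, showed few calls. *Srebf1*, a driver of fatty acid synthesis, was lower after orchiectomy, as were 1.13% of all genes, at -0.49 (adjusted P = 0.308), a call lost in 15 of 24 alternative fits. Against orchiectomized mice DHT moved 0 of the 10 past an unadjusted P value of 0.01 in edgeR (9.72% of all genes), with 2 of them under 0.05 (21.2% of all genes). Against control mice, where 1.52% of all genes were higher, DHT-treated mice had more *Klf15* (0.54, adjusted P = 0.174) and *Cebpd* (0.53, adjusted P = 0.187). The *Klf15* call was lost with the endothelial covariate, and 5 of 12 clock genes were higher and 1 lower (2.01% of all genes) in the same comparison. *Pparg* was at 101 ± 43.3, 63.5 ± 19.4 and 69.3 ± 31.9 CPM (-0.66 after orchiectomy, adjusted P = 0.452) and *Cebpa* at 429 ± 172, 340 ± 63.5 and 349 ± 111 CPM, neither called. Of the genes for adiponectin assembly and secretion, 5 of 6 were found and tested, and *Erp44*, a chaperone that retains adiponectin, was called at -0.28 with DHT against orchiectomized mice (adjusted P = 0.0951), where 7.27% of all genes were lower, a call lost in 18 of 24 alternative fits.

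**Figure D5:**
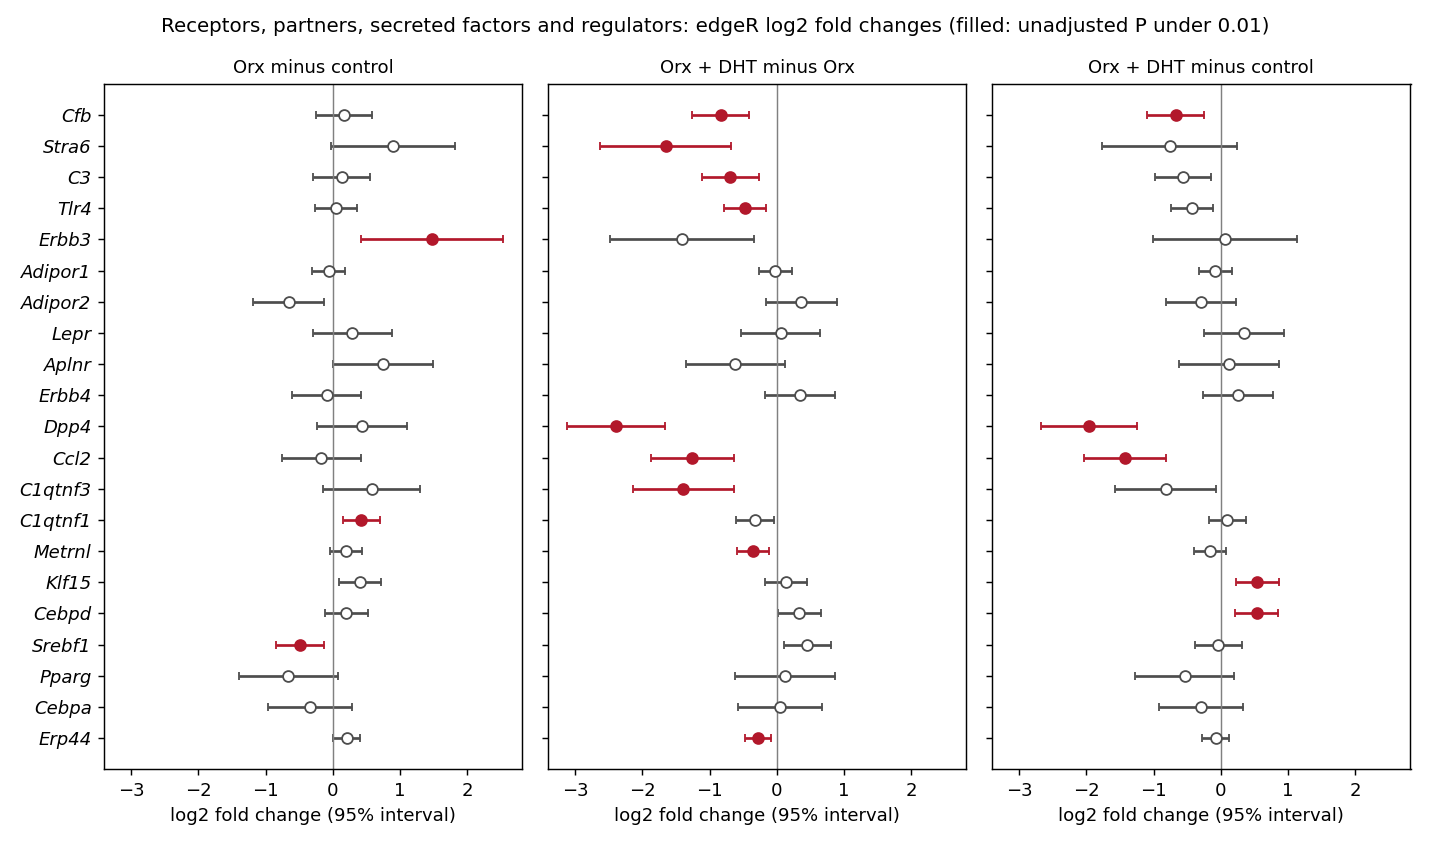
Log2 fold changes (horizontal axis) with 95% intervals for the named receptors, partners, secreted factors, regulators and assembly genes in the 3 comparisons. Filled points have an unadjusted P under 0.01. The middle panel holds most of the filled points, all of them below 0, with *Dpp4* farthest at -2.39.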

How the data were processed

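RNA-Seq of 15 mouse aortas was analyzed, with groups taken from the deposited labels. The authors deposited raw counts of reads per gene symbol, as whole numbers without normalization, from libraries of poly(A)-selected RNA. The submitters' processing notes name STAR, Cufflinks, DESeq2 and the mm10 build without versions or roles, and the counting program and its strand setting are not given in the sources used here. Reads assigned to no gene (6.26% to 14.4%) or to several (1.34% to 1.97%) were left out. Gene counts came to between 8268957 and 13816864 per library (median 10930079), and 10 counts in a median library equal 0.906 CPM.

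All 3 groups entered a single quasi-likelihood model in edgeR 4.0.16 (R 4.3.3) after filterByExpr (at least 10 counts, 15 in total) and TMM scaling, tested on simulated data. Calls were unadjusted P values under 0.01, the threshold of the study, with Benjamini-Hochberg values over all tested genes. Log2 CPM used a prior count of 3. P values test a difference between groups against the spread between mice, with 1 library per mouse. Alternatives were RLE factors, DESeq2 1.42.0, limma 3.58.1 voom with quality weights, no filter, only the groups compared, a replicate block, adipocyte, brown adipocyte or endothelial level as covariate, an adjusted threshold of 0.05, and each library left out. The endothelial covariate was added after the data were seen.

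Named were all 7 members, up to 5 called genes per list, the cognate receptors, *Pparg* and *Cebpa*, and the 3 genes most like each member. The members and lists were chosen with earlier results of these data known. Of the 24982 symbols, 24417 matched RefSeq (GRCm38.p6), the source of positions and promoter windows. Figures used matplotlib 3.10.9.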

Additional observations from a re-analysis of the deposited data

Results flagged for a closer look

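*Lep* in control replicate 5 measured 32.9 CPM, while the nearest control library was at 12.3 CPM. The gap took up 0.882 of the group's whole range, above Dixon's critical value of 0.71 for 5 samples. It was the only value beyond that limit among the 27 groups of 5 libraries examined, of which chance alone passes about 1 in 20. Without it the comparison of orchiectomized with control mice gave *Lep* a log2 fold change of -1.37 (adjusted P = 0.423, edgeR), which was not called.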

How the results depend on the processing

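After orchiectomy 1 member was called, *Lep*, and the count stayed at 1 under RLE factors, DESeq2, voom, no filter, only the groups compared, the replicate block and the endothelial covariate. It was 1 under the adipocyte covariate too, but with *Apln* in place of *Lep* (1.47% of all genes), it was 2 under the brown adipocyte covariate (*Lep* and *Apln*, 1.17% of all genes) and 0 at an adjusted threshold in edgeR, where 0 genes passed against 131 in DESeq2, and it ranged from 0 to 1 with 1 library left out. With DHT against orchiectomized mice 1 member was called, against 3 under either fat covariate (8.36% of all genes with adipocyte and 7.95% with brown adipocyte genes), 0 under the endothelial covariate (11.9%) and the adjusted threshold, and 0 to 2 with 1 library left out. With DHT against control mice 0 were called throughout. Numbered replicates shared only their number, since the correlations of their deviations ranged from -0.466 to 0.463 between orchiectomized and DHT-treated mice. With the replicate block 0 members were called with DHT against orchiectomized mice, and *Apln* had -1.47 (adjusted P = 0.180). It changed no other member's call.

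Several members and fixed genes changed sign, and the cause was not tested. With the adipocyte covariate the log2 fold changes after orchiectomy were 0.38 for *Adipoq*, 0.079 for *Adipor1*, 0.33 for *Cebpa*, 0.17 for *Nrg4*, 0.11 for *Pparg* and 0.033 for *Rbp4*, with DHT against orchiectomized mice -0.037 for *Adipor2*, -0.44 for *Cebpa*, -0.47 for *Nrg4* and -0.46 for *Pparg*, and with DHT against control mice 0.025 for *Cfd*. With the brown adipocyte covariate the same genes stood at 0.30, 0.065, 0.26, 0.12, 0.045 and 0.044, then -0.0016, -0.38, -0.44 and -0.41, then 0.0084. With the endothelial covariate *Rbp4* stood at 0.0037 after orchiectomy, *Adipoq* at 0.16, *Adipor1* at 0.091, *Aplnr* at 0.066, *Lepr* at -0.11 and *Retn* at 0.022 with DHT against orchiectomized mice, and *Adipor1* at 0.0023, *Apln* at 0.24, *Cfd* at 0.25 and *Retn* at 0.29 with DHT against control mice. *Adipor1* with DHT against orchiectomized mice stood at 0.0084 with RLE factors, 0.0081 with DESeq2, 0.021 without the filter and 0.0029 with only the groups compared. Under voom *Erbb4* (0.19) and *Rbp4* (0.11) after orchiectomy, *Cebpa* (-0.033), *Nrg4* (-0.35) and *Pparg* (-0.19) with DHT against orchiectomized mice and *Retn* (0.12) against control mice changed sign.

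With 1 library left out, the ranges that crossed 0 after orchiectomy were -0.29 to 0.040 for *Adipoq*, -0.27 to 0.025 for *Erbb4* and -0.18 to 0.029 for *Rbp4*. With DHT against orchiectomized mice they were -0.048 to 0.045 for *Adipor1*, -0.053 to 0.18 for *Cebpa*, -0.11 to 0.22 for *Lepr*, -0.22 to 0.29 for *Nrg4* and -0.15 to 0.35 for *Pparg*, and against control mice -0.059 to 0.30 for *Aplnr*, -0.16 to 0.12 for *Cfd* and -0.20 to 0.13 for *Retn*. At their lowest, *Lep* rested on 23 counts (orchiectomized replicate 3) and *Apln* on 22 counts (DHT replicate 1) in a library, which limits the precision of both.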

Other observations

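With the group means subtracted, so that only differences between mice of a group are left, *Pparg* (r = 0.99) was among the genes most like *Nrg4*. *Adipoq* then ran most like *Aspa* (0.97), *Fmo1* (0.96) and *Asns* (0.95), and *Apln* like *Arhgef15*, an endothelial exchange factor, *Alas1* and *Sh3bp5* (all 0.97). For *Lep* the nearest were the chemokine *Ccl24* (0.79), the interferon-induced *Xaf1* (0.79) and the chemokine *Ccl2* (0.78). *Cfd* was nearest to the interferon-induced *Ifi27l2a* (0.90), *Nrip2* (0.90) and *Aldh3b2* (0.89), *Rbp4* to *Emc10* (0.94), *Clptm1l* (0.90) and *Ppia* (0.90), and *Retn* to *Ppp2r3c* (0.92), *Rad51ap1* and *Prnp* (both 0.90). Among the members, *Adipoq* paired with *Nrg4* at 0.86 and with *Apln* at 0.84, and *Retn* with *Cfd* at 0.80. These correlations are descriptions over 15 libraries.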
